A study of Bos taurus with 6 samples.

Results

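Extracellular matrix and growth factor genes were described here as the 4 genes LTBP3, PDGFA, COL18A1 and PAPLN, taken by symbol from the authors' table of regions differing in DNA methylation between Creole and Spanish cattle. These genes hold 4 of the 334 listed regions, or 4 of the 275 that carry a gene name. For each gene, every cytosine with at least 10 read calls was then taken from the gene range in that table plus 20000 bp on either side, which gave 2579 of the 2818800 such cytosines in the series (576 at LTBP3, 983 at PDGFA, 737 at COL18A1 and 283 at PAPLN). Because the genes were chosen from the Creole against Spanish contrast, the listed regions are described without a test, and only the rest of each locus was compared between the groups.

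Blood DNA of 6 adult male cattle was profiled by reduced representation bisulfite sequencing (RRBS), in which DNA is cut at CCGG sites by the enzyme MspI, fragments of 1 size class are kept, and bisulfite turns unmethylated cytosines into thymine before sequencing. Creole 1 was a Sanmartinero bull, and Creole 2 and Creole 3 were Costeno con Cuernos bulls; their DNA came from the UltraClean BloodSpin kit. Spanish 1 was of the Retinta breed, Spanish 2 Asturiana de los Valles and Spanish 3 Lidia, with DNA from the QIAamp DNA Blood Mini kit. The lane mark of the libraries also followed the groups. Breed group, extraction kit and lane mark therefore cannot be told apart in any comparison. The study asked whether blood methylation differs between Creole cattle and Iberian breeds.

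The 4 proteins act outside the cell. LTBP3 tethers latent TGF-beta, a growth factor stored in the matrix until it is released. PDGFA is a secreted ligand of the PDGF receptors and drives growth of mesenchymal cells. COL18A1 encodes a basement membrane collagen whose cleaved end is endostatin, and PAPLN encodes papilin, a matrix glycoprotein related to the ADAMTS proteases. As background, CpG methylation in mammalian blood cells is usually low where genes start and high within gene bodies. RNA was not measured, so nothing here speaks to expression, and whole blood mixes cell types whose shares were not measured.

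Libraries held between 40986296 and 84537374 CpG calls. Creole 1 stood apart: it covered 3491869 cytosines against 710684 to 1692031 in the other 5 libraries, and 68.6% of its cytosines with at least 10 calls were all methylated or all unmethylated, against 87.2% to 91.7% in the others. It also had 0 cytosines outside the autosomes and X, against 22502 to 26728 in each of the others, for reasons that were not tested. Low counts also matched between certain libraries. Where Creole 2 had 20 or more calls in a single state, Creole 3 had 1 or 2 calls at 22.3% of cytosines, and 98.8% of these were in the same state. Over both orders of the pairs Creole 2 with Creole 3 and Spanish 1 with Spanish 2, these shares ran from 11.1% to 22.3% and from 96.5% to 98.8%. Over the other 26 ordered pairs they ran from 3.03% to 5.86% and from 82.1% to 92.7%. The cause was not tested, and values that rest on 1 or 2 calls are therefore named as such and left out where stated.

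The authors listed all 4 regions as more methylated in the Spanish group, a direction shared by 98 of their 334 regions (29.3%). According to the authors' deposited table, mean methylation of the Creole and Spanish groups was 13% and 91% at LTBP3, 13% and 89% at PDGFA, 46% and 78% at COL18A1, and 12% and 92% at PAPLN. Of the 98 regions listed as higher in Spanish animals, 9 had a difference at least as large as that of PAPLN, 17 as that of LTBP3, 23 as that of PDGFA and 94 as that of COL18A1. The smallest difference in the list was 25 points, so COL18A1 at 32 points sits near the edge of the table and the other 3 far inside it. None of the 4 regions had a recorded relation to a CpG island, against 121 of all 334 and 15 of the 98.

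The regions are short. On UMD3.1 coordinates, the LTBP3 region is chr29:44390852-44390925 (74 bp, 10 CpGs) at an intron-exon boundary, 10569 bp above the lower coordinate of the gene range. The COL18A1 region is chr1:147002896-147002971 (76 bp, 9 CpGs) on an exon, and the PAPLN region is chr10:85119305-85119405 (101 bp, 6 CpGs) at an exon-intron boundary. The PDGFA region is chr25:42552928-42552986 (59 bp, 4 CpGs) and overlaps no gene. It ends 20253 bp below the PDGFA gene range and begins 4510 bp above that of PRKAR1B, a regulatory subunit of protein kinase A that has a listed region of its own, so the name PDGFA rests on the authors' assignment. The window of 20000 bp around PDGFA misses this region by 253 bp, and its calls were read separately. The median listed region had 8 CpGs over 79.5 bp.

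Recounted library by library, no region was read to 10 calls in all 6 animals. At LTBP3, Creole 1 had 0.719% methylation over 139 calls (95% Wilson interval 0.127% to 3.96%). Spanish 1 had 100% over 250 calls (98.5% to 100%) and Spanish 2 had 93.6% over 376 calls (90.7% to 95.7%). Creole 2, Creole 3 and Spanish 3 had no call there, so the Creole value is that of 1 Sanmartinero bull. Intervals cover counting error only, since PCR copies of a fragment without molecular identifiers are not independent molecules. Counting the calls of a single cytosine, not of all cytosines together, widens them: at 14 calls, 0 methylated allows up to 21.5%. That bound still takes the 14 calls as independent, so it does not account for PCR copies.

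The low state of LTBP3 in Creole 1 began inside a covered stretch and ran to its end. Going up the chromosome, its 5 cytosines from 44390809 to 44390845 were methylated in 98.6% of 70 calls, and the next, at 44390852, in 1 of 13. The 9 after it in the region were methylated in none of 14 calls each. The last cytosine at this depth, 44390936 above the region, was methylated in 1 of 14 calls in Creole 1, in none of 25 in Spanish 1 and in none of 16 on the plus strand of Spanish 2. At 44390957, 32 bp beyond the region, depth fell to 11 and all 11 calls were methylated. In Spanish 1, the 10 cytosines of the region were methylated in 25 of 25 calls each. In Spanish 2, the plus strand was methylated in 16 of 16 calls at each of 10 cytosines, while on the minus strand 8 cytosines were methylated in all 24 calls and 1 in none of 24. Creole 1 thus differed from Spanish 1 at all 9 CpGs that were in a single state in both, and Spanish 1 and Spanish 2 had the same state at all 9 CpGs they shared in a single state.

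At PAPLN the region's 6 cytosines were unmethylated in the Creole library with calls and methylated in the Spanish ones. Creole 1 had 0% methylation over 131 calls (upper Wilson bound 2.85%, or 14.9% for a single cytosine of 22 calls), Spanish 1 had 100% over 120 calls (96.9% to 100%) and Spanish 2 had 100% over 174 calls (97.8% to 100%). Spanish 3 had a single call at each of the 6 cytosines, all methylated, which at 6 calls is under the minimum of 10 for the mean. Creole 2 and Creole 3 had no call. The cytosine 12 bp below the region, at 85119293, was unmethylated in all 21 calls of Creole 1 and all 20 of Spanish 1, and methylated in all 29 of Spanish 2. The PAPLN difference between groups therefore also sets 1 Creole animal against 2 Spanish animals.

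At PDGFA the Creole animals did not share a state. Creole 2 had 0% over 60 calls (upper bound 6.02%), with its 4 cytosines at 0 of 15 calls and the CpGs just outside the region, at 42552898, 42552999 and 42553005, at 15 of 15. Spanish 2 had 100% over 60 calls (94.0% to 100%). Creole 1 had 66.7% over 12 calls (39.1% to 86.2%), read on the other strand at 4 calls per cytosine. With the partner cytosine of the last CpG included, Creole 1 matched Creole 2 at 2 of 4 CpGs and Spanish 2 at the other 2. Spanish 1 and Spanish 3 had 1 call per cytosine, all methylated, and Creole 3 had none. The mean difference, Creole minus Spanish, was −66.7 points over 3 libraries, −100 points without Creole 1 and −33.3 points without Creole 2.

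At COL18A1 the deepest reading was a mosaic. Creole 2 had 44.5% over 2299 calls (42.4% to 46.5%), made of 4 cytosines methylated in all of 254 to 256 calls and 5 methylated in none, so that the group mean of 46% in the authors' table lies close to a level that no cytosine of that library had. Creole 3 had 44.4% over 18 calls (24.6% to 66.3%) at 2 calls per cytosine, with the same state as Creole 2 at 9 of 9 CpGs. Creole 1 had 100% over 128 calls (97.1% to 100%). Spanish 3, the only Spanish library with calls, had 88.9% over 360 calls (85.2% to 91.7%), with 8 cytosines methylated in all 40 calls and 1, at 147002929, in none. That cytosine was methylated in all 256 calls of Creole 2.

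Creole 1 had a higher value at COL18A1 than Spanish 3, against the listed direction. The Creole mean was 63.0% ± 32.1 (SD, n = 3, with Creole 3 on 2 calls per cytosine that repeat the states of Creole 2) against 88.9% in the lone Spanish library, a difference of −25.9 points. It was −44.4 points without Creole 1, −16.7 without Creole 2 and −16.7 without Creole 3. At the matching CpGs, Creole 1 and Spanish 3 had the same state at 8 of 9, and Creole 1 and Creole 2 at 4 of 9. Creole 2 and Creole 3 each had the same state as Spanish 3 at 3 of 9. Neither the pairs within the Creole group nor those between groups were uniform.

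**Figure D1:**
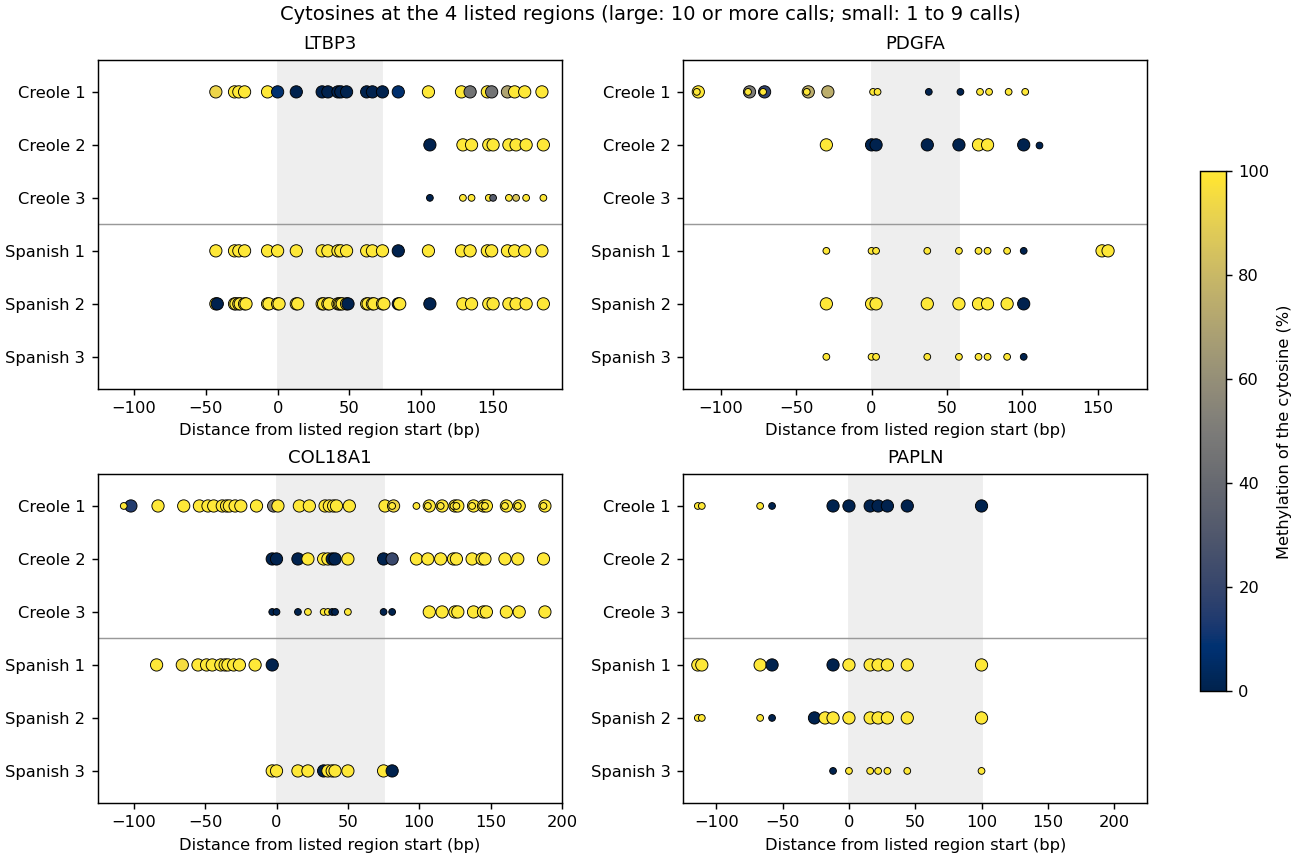
Methylation of single cytosines (colour, %) in each library against distance from the start of the listed region (bp, grey band), with large points for 10 or more calls and small points for fewer. Nearly all points are at 0 or 100%, states switch between neighbouring cytosines of a library, and in no panel do all 6 libraries have large points inside the band.

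Outside the listed regions the loci had the same all-or-none character. Of cytosines with at least 10 calls, 73.2% in Creole 1 and 92.8% to 94.8% in the other 5 libraries were at exactly 0 or 100%. Call numbers could be nearly constant along a stretch, as at the COL18A1 region, where 9 neighbouring cytosines had 254 to 256 calls in Creole 2. Few cytosines were read in several animals: 59.6% reached 10 calls in 1 library only (49.5% at LTBP3 to 64.9% at PDGFA), and 1 of 2579 reached it in all 6. That cytosine, at LTBP3, had 20.5%, 0% and 92.9% methylation in Creole 1 to 3 and 100%, 100% and 34.6% in Spanish 1 to 3. The groups overlapped, and a single cytosine was too few for a test.

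Place within a stretch went with the level in every library. Over runs of at least 4 cytosines on 1 strand (gaps up to 100 bp, depth changing by up to 20%), the last cytosine at the 3′ side averaged 22.9% to 39.0% methylation, inner ones 60.8% to 80.5%, and the first 71.3% to 83.3%. The 6 ranges of last and inner cytosines did not overlap. The labels' protocol says that MspI ends were filled in during library preparation. How much of the difference comes from that was not tested, and levels without the last cytosines are among the alternatives.

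**Figure D2:**
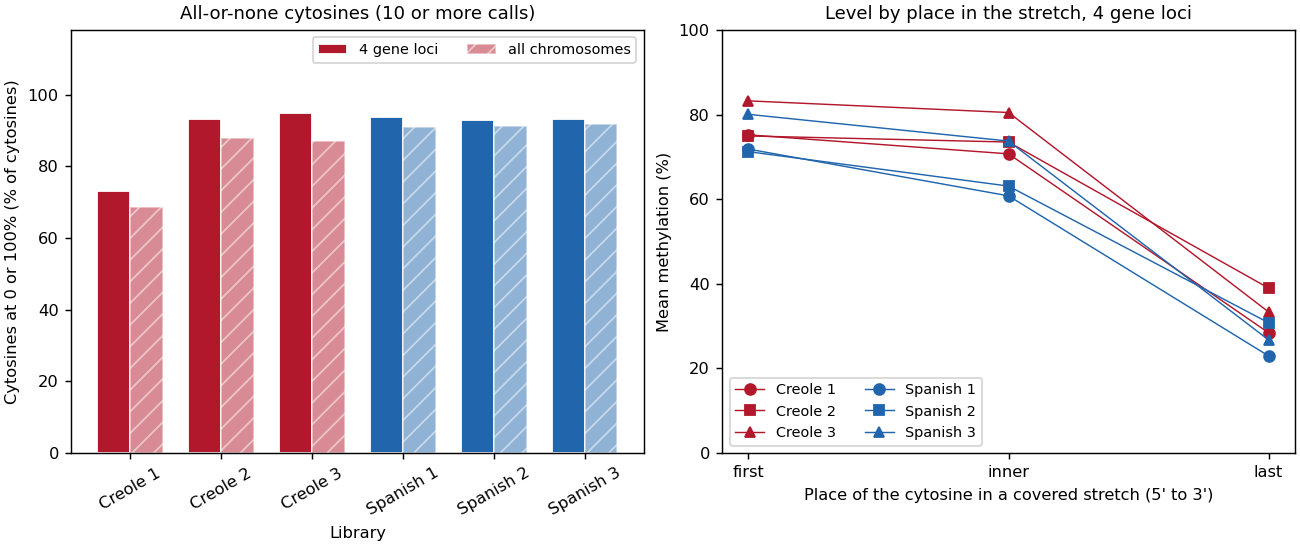
Left, the share of cytosines at exactly 0 or 100% (%) per library in the 4 loci (solid) and on all chromosomes (hatched), where Creole 1 is lowest at 73.2% and 68.6%. Right, mean methylation (%) of the first, inner and last cytosines of covered stretches in the 4 loci, with the last ones at 22.9% to 39.0% in all 6 libraries.

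Bins of 1000 bp showed low blocks at LTBP3 and PDGFA and mostly high levels at COL18A1 and PAPLN. LTBP3 had 3 bins that were low in every one of the 5 libraries that read them. The bin 44370001 to 44371000, below the gene, was at 0.131%, 0% and 0.312% in Creole 1 to 3 and at 0% in Spanish 1 and 2, over 6382 calls. The bin 44400001 to 44401000, which holds the higher end of the gene range, was at 13.5% in Creole 1, at 0.386% in Spanish 1 and at 0% in Creole 3, Spanish 2 and Spanish 3. The bin 44418001 to 44419000 was at 0.390% or less in all 5 libraries that read it. None of these 3 bins separated the groups. Inside the gene, levels varied between libraries. Bin 44381001 to 44382000 was at 79.3% to 100% in 5 libraries. The next, to 44383000, had 81.9% in Creole 1 and 0%, 0% and 43.6% in Spanish 1 to 3, and the one after it had 78.6% in Creole 1 and 66.4%, 20.8% and 0% in Spanish 1 to 3. Over each whole bin, the single Creole library lay above all Spanish ones, opposite to the listed region. The libraries read partly different cytosines of these bins. At 44382601 to 44382700, Creole 1 was at 100% and Spanish 1 and 2 at 0%, while Spanish 3 had no value. At 44383301 to 44383400, Creole 1 (81.1%) was above Spanish 1 to 3 (66.7%, 10.3% and 0%). At 44383401 to 44383500, Spanish 1 (85.7%) was above Creole 1 (78.5%) and Spanish 2 (25.3%). The 2 bins of 1000 bp were named after their values were seen.

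PDGFA had a low block across the lower end of its gene range. The bins from 42573001 to 42576000 were between 0% and 9.09% in each of the 4 libraries with calls there (Creole 1 and 3, Spanish 1 and 2), and the bin 42570001 to 42571000 was at 16.0% in Creole 1, 0% in Creole 3 and Spanish 2, and 21.1% in Spanish 3. Creole 2 had no bin in this block. Higher in the gene, the bin 42584001 to 42585000 was at 81.0% and 100% in Creole 1 and 3 and at 83.5% to 87.7% in the 3 Spanish libraries. Above the gene a second low stretch, 42600001 to 42601000, had 15.4%, 20.0% and 0% in the 3 Creole libraries and 61.2% and 20.0% in Spanish 2 and 3. Spanish 2 alone was high there, and the groups overlapped at 20%.

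COL18A1 was methylated almost throughout. Median levels of its bins were 75.3% to 84.6% over the 6 libraries, and no library had more than 3 bins under 20%. The higher flank overlaps the gene range of SLC19A1, a folate transporter that begins 3143 bp above COL18A1. PAPLN had the fewest bins, 5 to 15 per library, with medians of 74.1% to 85.7%. Its lowest bin of more than 1 library, 85090001 to 85091000, lies below the gene and had 28.8% in Creole 1, 5.22% in Spanish 2 and 25.4% in Spanish 3. Whether a low block marks the start of the gene could not be read from the authors' table, which gives no strand.

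**Figure D3:**
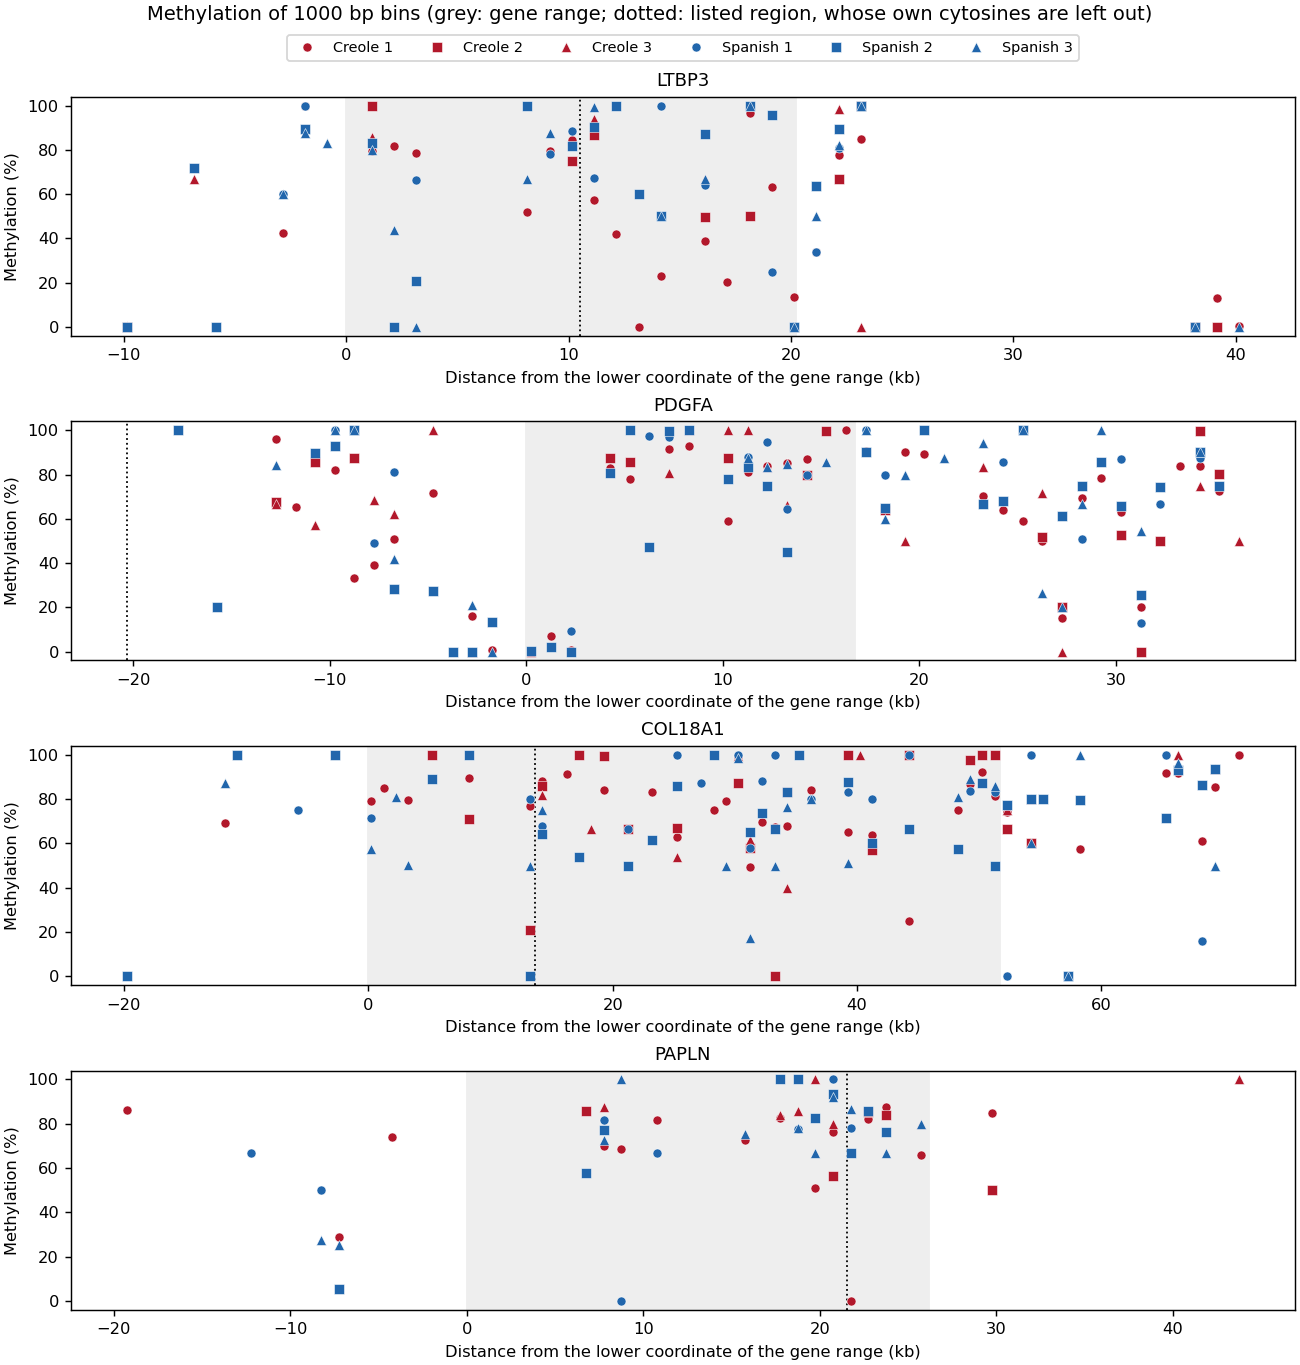
Methylation (%) of 1000 bp bins per library (Creole red, Spanish blue) against distance from the lower coordinate of the gene range (kb), with the gene range in grey and the listed region dotted. LTBP3 and PDGFA have blocks near 0% in libraries of both groups, and COL18A1 and PAPLN are mostly above 50%.

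In the main setting, levels of whole loci did not separate the groups. Since the libraries read different cytosines, each library's level was estimated from 100 bp bins in a least squares fit of bin and library, over bins read in 2 or more libraries. At LTBP3 the levels were 48.7%, 49.1% and 39.2% in Creole 1 to 3 and 51.3%, 55.1% and 45.7% in Spanish 1 to 3, so the groups overlapped. Their means were 45.7% ± 5.57 and 50.7% ± 4.74 (SD, n = 3 each), a difference of −5.05 points (exact two-sided permutation test, p = 0.4, 1 of 4 such comparisons). A comparison of 3 against 3 cannot give a p under 0.10.

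The PDGFA locus had 56.6%, 66.9% and 55.4% in Creole 1 to 3 and 72.7%, 61.9% and 64.4% in Spanish 1 to 3. The means differed by −6.71 points (exact permutation p = 0.3), with Creole 2 above both Spanish 2 and Spanish 3. At PAPLN the levels were 65.1%, 59.7% and 67.7% in Creole and 74.0%, 67.7% and 66.4% in Spanish animals, a difference of −5.18 points (exact permutation p = 0.2). COL18A1 had 70.0%, 73.0% and 68.3% against 76.4%, 69.1% and 71.1%, a difference of −1.75 points (exact permutation p = 0.6). All 4 differences had the listed direction and were of the size of the spread between animals of a group. The sign turned at LTBP3 (0.095 points) and PAPLN (1.01 points) when cytosines needed 20 calls, and at COL18A1 under 4 alternatives, among them leaving out Spanish 1 (0.148 points). Under other alternatives, given below, the groups were fully separated at each gene, with Spanish animals higher.

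**Figure D4:**
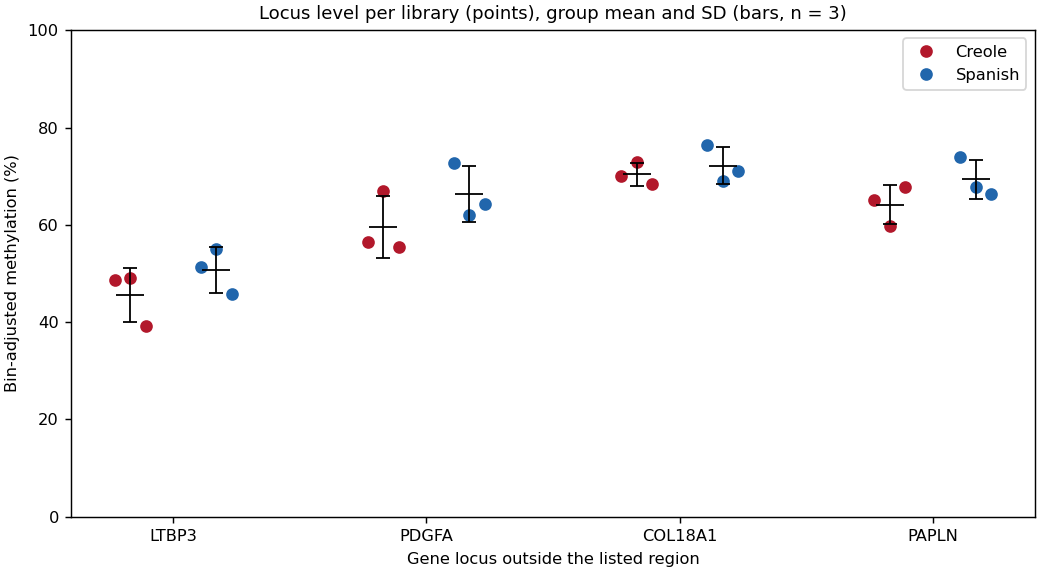
Bin-adjusted methylation (%) of each locus outside its listed region, with a point per library and the group mean and SD (n = 3 each). Creole and Spanish points overlap at all 4 genes, and the differences of the group means, Creole minus Spanish, run from −6.71 to −1.75 points.

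Single bins were compared where 2 or more libraries per group had calls, leaving out bins that hold a listed region. Of 44 such bins, 26 had the higher mean in Spanish and 18 in Creole animals, with a median difference of −3.41 points, while over all 47557 bins of the genome 49.6% were higher in Spanish and 48.5% in Creole animals, with a median of 0. In 8 bins (18.2%) all Spanish values lay above all Creole values, and in 2 (4.55%) the reverse held. Over the genome these shares were 11.8% and 9.81%. The count of 8 became 2 of 16 bins without Creole 1, 2 of 24 without Spanish 2, 4 of 32 without Spanish 1 and 3 of 32 with at least 20 calls per cytosine, with fewer bins compared in each. It was 8 of 29 without Creole 2 or without Creole 3, 7 of 32 without Spanish 3 and 10 of 51 with at least 5 calls. No genome-wide share was available at these other settings, so their counts cannot be set against the 11.8% and 9.81%. The libraries of a bin often read different cytosines of it, so a bin's difference can be one between cytosines.

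Of the 8 bins read in all 6 libraries, 2 had no overlap between the groups, against 6.74% (Spanish higher) and 4.38% (Creole higher) of 7879 such bins in the genome. One adjoins the PAPLN region. Between 85118001 and 85119000, methylation was 76.1%, 56.4% and 80% in Creole 1 to 3 and 100%, 93.4% and 92.3% in Spanish 1 to 3. The means were 70.9% ± 12.6 and 95.2% ± 4.16 (SD, n = 3 each), with 55 to 707 calls per library. Only 7 of its 30 cytosines were read in both groups, and over these the levels were 7.58%, 32.1% and 0% in Creole 1 to 3 and 100% in Spanish 1 and 2. Not every library read all 7, since Creole 3 and Spanish 1 had 5 cytosines each in the whole bin. At 85118990, Creole 1 had 4 of 33 calls methylated, Creole 2 had 0 of 69 and Spanish 2 had 29 of 29. The Spanish animals were not uniform at this CpG. On its other strand, 85118991, Spanish 2 had 25 of 25 calls methylated, Spanish 3 had 0 of 10 and Spanish 1 had 0 of 6. The cytosine before 85118990, at 85118957, was methylated in all calls of Creole 1 and 2. At the next one on that strand, 85119026, depth fell to 4 in Creole 1 and stayed at 29 in Spanish 2.

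The other adjoins the COL18A1 region and goes the opposite way. Between 147003001 and 147004000, the Creole libraries had 88.3%, 85.9% and 81.8% and the Spanish ones 67.6%, 64.2% and 75.3%. The means were 85.3% ± 3.30 and 69.1% ± 5.67 (SD, n = 3 each), over 166 to 1532 calls per library. Of its 61 cytosines, 41 were read in Creole libraries only, 15 in Spanish libraries only and 5 in both groups. Over these 5 the levels were 64.0% in Creole 2 and 58.1% in Spanish 2, the libraries that read them, so the bin sets mostly different cytosines against each other. The listed region itself, which starts 105 bp below this bin, was listed as higher in Spanish animals.

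Further bins with no overlap lay inside genes and in flanks. The 5 given here were named for the size of their difference. Bins left out were all higher in Spanish animals. Among them, PDGFA 42580001 to 42581000 had 91.4% and 80.7% in Creole 1 and 3 against 97.0% and 99.5% in Spanish 1 and 2. PDGFA 42603001 to 42604000 had 63.0% and 52.7% in Creole 1 and 2 against 87.0% and 66.0% in Spanish 1 and 2. In COL18A1, 147014001 to 147015000 had 62.9%, 66.8% and 53.9% in Creole 1 to 3 against 100% and 85.7% in Spanish 1 and 2. In PAPLN, 85115001 to 85116000 had 82.6% and 83.8% in Creole 1 and 3 against 100% in Spanish 1 and 2, and 85121001 to 85122000 had 87.7% and 84.0% in Creole 1 and 2 against 76.2% and 66.7% in Spanish 2 and 3. Below PDGFA, 42564001 to 42565000 had 33.3% and 87.5% in Creole 1 and 2 and 100% in all 3 Spanish libraries, on 10 to 92 calls each. At LTBP3, 44398001 to 44399000 had 96.6% and 50.0% in Creole 1 and 2 and 100% in Spanish 2 and 3. Of the cytosines behind these 5 bins, 7 of 14 at COL18A1 147014001, 1 of 16 at PAPLN 85115001, 14 of 14 at PAPLN 85121001, 0 of 18 at PDGFA and 3 of 6 at LTBP3 were read in both groups. The PAPLN bin at 85121001, higher in Creole animals, is the only one of the 5 whose cytosines were all read in both groups.

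Bins beside the LTBP3 region overlapped between groups. With the region's own cytosines left out, its bin had 84.4% and 75.0% in Creole 1 and 2 and 88.7% and 81.7% in Spanish 1 and 2. The bin above, 44391001 to 44392000, had 57.4%, 86.7% and 94.2% in Creole 1 to 3 and 67.5%, 90.1% and 99.2% in Spanish 1 to 3. In both bins the groups overlapped, and Creole 1, nearly unmethylated in the region, was the lowest of the 6 only in the bin above.

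No window of the loci passed a genome-wide test. edgeR's quasi-likelihood test on methylated and unmethylated counts, over cytosines read in all 6 libraries, could be run on 2402 windows of 1000 bp in the genome. It called 0% of them at an adjusted p under 0.05, while 135 had an unadjusted p under 0.05 and edgeR's likelihood ratio test called 16. None of the 2402 lies in the 4 loci, so the genes went untested there. With windows read in 2 or more libraries per group, limma, fitted to the log2 of methylated over unmethylated calls, tested 37870 windows and called 0%, with 4.91% at an unadjusted p under 0.05.

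Of these windows, 36 lay in the loci outside the listed regions, and 4 (11.1%) had an unadjusted p under 0.05. The smallest was the PAPLN window beside the listed region, with a log2 difference of −2.63 ± 0.71 (SE; limma, adjusted p = 0.825). The COL18A1 windows at 147003001 and 147014001 had 1.39 ± 0.51 and −3.38 ± 1.08 (SE; limma, adjusted p = 0.954 and 0.945). The PDGFA window at 42564001 had −4.32 ± 1.49 (SE; limma, adjusted p = 0.954). None passed the adjusted threshold, and 1 of the 4 was higher in Creole animals.

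Cytosines of the loci differed between animals of a group about as much as between groups. Over cytosines with at least 10 calls in both libraries of a pair, the mean absolute difference was 12.2 to 23.8 points in the 9 pairs between groups (median 20.1), 14.1 to 33.5 points in the 3 Creole pairs and 15.2 to 21.1 points in the 3 Spanish pairs. Opposite states, 0% in one library and 100% in the other, made up 5.71% to 15.2% of shared cytosines between groups. The shares were 5.18% to 19.4% within the Creole group and 7.0% to 13.8% within the Spanish group. In the loci the ranges between and within groups overlapped, on 31 to 397 shared cytosines per pair. Over all chromosomes, opposite states made up 4.46% to 8.36% between groups. Within the Creole group they made up 4.28% to 4.88%, and within the Spanish group 6.34% to 7.75%.

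The authors' table was also searched for related genes. Lists of genes for latent TGF-beta binding and microfibrils, TGF-beta signalling, PDGF ligands and receptors, collagens, basement membrane, papilin and ADAMTS proteins, matrix proteases and crosslinking, and other growth factors held 130 genes. Of these, 4 had a listed region, which were the genes described here, and 0 of the other 126 did. Of 18523 named protein-coding genes of the RefSeq list, 92 (0.497%) had a listed region, so 0 of 126 is near that share. Both counts rest on exact matches of gene symbols, and 275 listed regions carry a gene name. A gene listed under another form of its name would be missed in both. The 126 include 15 further genes for latent TGF-beta binding and microfibrils, 6 PDGF ligands and receptors, 22 collagens and 19 genes of the papilin and ADAMTS list. A gene without covered cytosines could not be listed, so absence says nothing of its methylation.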

How the data were processed

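The coverage files deposited by the authors hold the count of methylated and of unmethylated calls per cytosine, not normalized, beside a percent column that equals their ratio. The submitters' processing notes name Trim Galore, Bismark, methylKit and UMD3.1. How they were set, whether PCR duplicates were removed and which tool called the regions is not given in the sources used here. The authors' table gives group means as a fraction, printed here as percent, a score per region that was not used, and gene ranges, per the file headers. Its 0 single-sample columns give no replicates.

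Strands were kept apart. A bin needed cytosines with at least 10 calls, and levels are methylated over all calls. Groups follow the breed labels, with 1 library per animal. Replicate numbers follow sample order and pair no animals. Windows were tested with edgeR 4.0.16 (library effects, dispersion without trend) and limma 3.58.1 (2 added to each count, Benjamini-Hochberg adjustment, threshold 0.05) in R 4.3.3. Both were also run on simulated counts. The spread between simulated libraries was set rather than taken from these data, so that run does not show how the tests behave here. Locus levels used Python 3.11.15, numpy 2.4.6, pandas 2.3.3 and scipy 1.17.1, with matplotlib 3.10.9 for plots. The planned locus test needed 5 cytosines shared by all 6 libraries. As no locus had them, the bin-adjusted level was added after the data were seen.

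The genes, gene lists and bins named (no overlap in 6 libraries, the 2 largest differences each way, the 2 with most calls, those beside listed regions) were chosen with earlier results of these data known. Gene names are the authors', looked up in a RefSeq list of ARS-UCD2.0 (129 of 130 list genes found). Sequences are not printed, as no UMD3.1 genome was used here.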

Additional observations from a re-analysis of the deposited data

How the results depend on the processing

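Calls of windows stayed at 0 under 17 alternatives to the edgeR test, and edgeR's likelihood ratio test gave 16. Over 52 alternatives, the bin-adjusted locus level was higher in Spanish animals in 46. The exceptions were LTBP3 (0.095 points) and PAPLN (1.01 points) with at least 20 calls, and COL18A1 without flanks (0.057), with flanks of 50000 bp (1.11), with 1000 bp bins (0.911) and without Spanish 1 (0.148). The smallest exact permutation p was 0.1, the lowest possible with 3 against 3, where the groups did not overlap. Each gene reached it: LTBP3 with 1000 bp bins (−8.59 points) and COL18A1 with strands merged (−3.47). PDGFA did so without flanks (−6.82) and with flanks of 50000 bp (−4.80), and PAPLN with at least 5 calls (−7.85) and without flanks (−6.14). With 1 library left out, the lowest possible exact permutation p is 0.2, again without overlap. It was reached at LTBP3 without Spanish 3 (−8.91) and PDGFA without Creole 2 (−9.95). PAPLN reached it without Creole 3 (−6.93) and without Spanish 1 (−6.31), and COL18A1 did not reach it. Separation thus depended on the setting. Differences ranged from −8.91 to 0.095 points at LTBP3, −9.95 to −0.722 at PDGFA, −3.97 to 1.11 at COL18A1 and −8.36 to 1.01 at PAPLN. Listed regions kept their direction under each alternative that gave a value. Widening them by 100 bp changed the difference from −96.1 to −22.8 points at LTBP3, −66.7 to −40.4 at PDGFA, −25.9 to −5.53 at COL18A1 and −100 to −82.3 at PAPLN. No value exists without Creole 1 at LTBP3 and PAPLN, Spanish 2 at PDGFA or Spanish 3 at COL18A1, each the only library of its group. Leaving out other libraries, some without calls, gave −99.3 to −92.9 points at LTBP3, −100 to −33.3 at PDGFA and −44.4 to −16.7 at COL18A1, and −100 at PAPLN. Bins without overlap and higher in Creole animals numbered 2, and 1 to 5 under the alternatives, for which no genome-wide share was available. Over cytosines shared by all 6 libraries, PDGFA, COL18A1 and PAPLN gave no value, and the single LTBP3 cytosine gave −40.4 points. Without 1 library, over 1 to 6 cytosines, LTBP3 gave −62.2 to −6.59, and COL18A1 gave 6.35 without Spanish 2 (7 cytosines) and PDGFA −0.156 without Spanish 1 (6 cytosines). No paired analysis was possible because replicate numbers follow sample order and pair no animals. Each listed region had 1 to 3 animals of a group with 10 or more calls.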

Other observations

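In the 4 loci, Creole 3 had 1 or 2 calls at 123 of the 324 cytosines (38.0%) where Creole 2 had 20 or more calls in a single state, and all 123 were in that state. Where both libraries had 10 or more calls, their 31 shared cytosines differed by 33.5 points on average, the widest of the 15 pairs, and 6 of the 31 were in opposite states. Spanish 1 had 1 or 2 calls at 59 of 587 such cytosines of Spanish 2, and 58 were in the same state. The 2 reads of Creole 3 at the COL18A1 region belong to these low counts.

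The authors' listed distance to the gene start equals the region's end minus the lower coordinate of the gene range for all 275 regions with a gene name, so it does not depend on strand. PRKAR1B, below PDGFA, and SLC19A1, above COL18A1, have listed regions of their own, at 11% and 89% and at 27% and 86% in the Creole and Spanish groups of the authors' deposited table. Neither of these regions overlaps the gene it is named for. The PRKAR1B region ends at 42507852, below the gene range, which starts at 42518065. The SLC19A1 region starts at 147108631, above the gene range, which ends at 147067542. Both regions go the same way as those named for PDGFA and COL18A1. They were listed from the same contrast in the same animals, so their direction is no independent support.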
